A study of Mus musculus with 24 samples.

Results

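The hypoxia-inducible factor (HIF) pathway was followed through the transcripts of 10 genes: Hif1a, Epas1 and Arnt, which encode the subunits of the factor, Egln1, Egln2 and Egln3, which encode its prolyl hydroxylases, Vhl, which encodes the receptor of its ubiquitin ligase, and the target genes Vegfa, Bnip3 and Pdk1. The members were chosen by gene symbol, and all 10 of 10 had a row among the 49585 genes of the count table. The cells were 24 single BFU-E (burst-forming units-erythroid), progenitors that found large colonies of red cells. They were sorted from C57/Bl6J fetal livers at embryonic day 14.5, after depletion of cells bearing surface markers of mature blood lineages, and sequenced by Smart-seq2, a plate method without molecular identifiers. There is 1 group with no treatment, the labels name no embryo for any cell, and the livers or pools behind the cells are not given, so the group counts as 1 sample. Values are therefore descriptions of these 24 cells, with no test between conditions. Cells are numbered 1 to 24 as in their titles, and they filled 3 plate columns of 8 wells.

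HIF is a transcription factor of an alpha subunit, HIF-1α from Hif1a or HIF-2α from Epas1, and the shared partner encoded by Arnt. When oxygen is present the prolyl hydroxylases mark the alpha subunit, the VHL ligase binds the marked protein and the proteasome removes it. When oxygen is low the alpha subunit persists, pairs with ARNT and binds hypoxia response elements near genes of glucose use, mitophagy and vessel growth. This control acts on the protein, which the present data do not measure. In cultured fetal liver BFU-E, inhibitors of the prolyl hydroxylases are known to act with glucocorticoids to extend self-renewal, and in the adult the HIF-2α of kidney cells drives erythropoietin.

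Total counts ran from 876983 to 2155010 per cell and genes with at least 5 counts, the level called detected below, from 4767 to 7349. No 2 cells had identical columns. Among the defining transcripts of the sort label, the stem cell factor receptor Kit was detected in 24 cells, the erythroid regulators Gata1 and Klf1 in 20 each and the erythropoietin receptor Epor in 18. Cells 1, 9, 19, 23 and 24 stood apart with Klf1 under 10 CPM (counts per 1000000 counts of the cell), and values without them are given beside several results below. Of 10 hepatocyte genes, 9 had counts, with a summed level of 4.79 to 1361 CPM that was highest in cell 10. Of 10 macrophage genes 6 were at 0 in every cell, among them C1qa, C1qb, C1qc and Adgre1, and the sum over the list ran from 0 to 663 CPM, highest in cell 1. Of 10 endothelial genes 4, Cdh5, Kdr, Emcn and Lyve1, were at 0 in every cell. The same held for 46.7% of all protein-coding genes. Lyz2 of the macrophage list and Pecam1 of the endothelial list were each detected in at least 6 cells. Summed myeloid genes reached 9291 CPM in cell 1, most of it Mpo, and summed megakaryocyte genes 1839 CPM in cell 12, while the defining genes Elane, Pf4 and Ppbp were at 0 throughout.

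Pdk1 and Bnip3, targets detected in nearly every cell, and Egln3 and Vegfa, targets detected in 2 cells and 1 cell, are shown by the 250 bases before their start, from RefSeq. Capitals mark the core of the hypoxia response element, ACGTG or GCGTG on either strand (read as CACGT or CACGC on the other).
Pdk1 (GRCm38.p6, chr2:71872974-71873223, plus strand): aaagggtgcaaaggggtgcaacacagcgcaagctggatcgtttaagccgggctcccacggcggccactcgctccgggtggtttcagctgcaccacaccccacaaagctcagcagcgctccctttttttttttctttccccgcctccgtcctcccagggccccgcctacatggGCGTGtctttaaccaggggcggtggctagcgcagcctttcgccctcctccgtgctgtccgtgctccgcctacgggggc
Bnip3 (GRCm38.p6, chr7:138909507-138909756, minus strand): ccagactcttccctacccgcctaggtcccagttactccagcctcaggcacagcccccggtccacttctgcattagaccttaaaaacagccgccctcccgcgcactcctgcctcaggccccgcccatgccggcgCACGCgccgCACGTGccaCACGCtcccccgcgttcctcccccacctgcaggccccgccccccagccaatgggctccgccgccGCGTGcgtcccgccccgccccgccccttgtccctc
Egln3 (GRCm38.p6, chr12:54203875-54204124, minus strand): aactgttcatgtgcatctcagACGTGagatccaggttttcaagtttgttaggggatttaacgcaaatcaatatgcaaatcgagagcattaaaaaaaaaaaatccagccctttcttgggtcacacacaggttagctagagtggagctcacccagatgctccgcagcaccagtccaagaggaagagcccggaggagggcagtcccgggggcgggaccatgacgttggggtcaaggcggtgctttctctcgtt
Vegfa (GRCm38.p6, chr17:46032378-46032627, minus strand): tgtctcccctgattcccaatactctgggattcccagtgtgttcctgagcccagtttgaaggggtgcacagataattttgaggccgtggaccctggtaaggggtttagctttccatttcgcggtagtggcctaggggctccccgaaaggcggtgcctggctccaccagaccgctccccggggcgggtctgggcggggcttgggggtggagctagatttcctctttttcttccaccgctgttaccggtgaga
The core is short and common. With each gene counted over all its listed starts, the core stood before 8 of the 9 members that have promoter entries, all but Vhl. It stood before 11226 of all 27025 genes with such entries (41.5%). Among the genes detected in at least 12 cells that have an entry the share was 66.4%. Bnip3 held 5 matches, of which 2 overlap within CACGTG, and Pdk1 and Egln3 held 1 each. The window of Vegfa shown held 0, while that of its other listed start held 2. That other window, from 46025164 to 46025413, lies inside the gene, and Vegfa is among the 8 only through it. The window of the other listed start of Pdk1 held 0. Of the listed HIF targets outside glycolysis, the core stood before 7 of 9 genes detected in at least 12 cells and before 25 of 31 genes detected in fewer. A match is a run of letters, and no binding was measured.

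The BFU-E carried transcripts of HIF-1α and ARNT, of the prolyl hydroxylase gene Egln2 in most cells and of the targets Bnip3 and Pdk1, while Epas1 had no counts. Of the 10 members, 5 were detected in at least 12 of the 24 cells, namely Hif1a, Arnt, Egln2, Bnip3 and Pdk1. The same held for 26.1% of all 21734 protein-coding genes measured. The 5 members outside that group were seen in 0 to 5 cells each. A single cell carried between 2 and 7 of the 10 transcripts, with a median of 5. Cell 3 had the fewest, only Hif1a and Arnt, and cell 17 the most. Of 240 values of a member in a cell, 117 were 0, 12 were 1 to 4 counts and 111 reached 5. This split was not compared with that of other genes. Without molecular identifiers it does not separate cells that lack a transcript from cells in which it was missed.

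**Figure D1:**
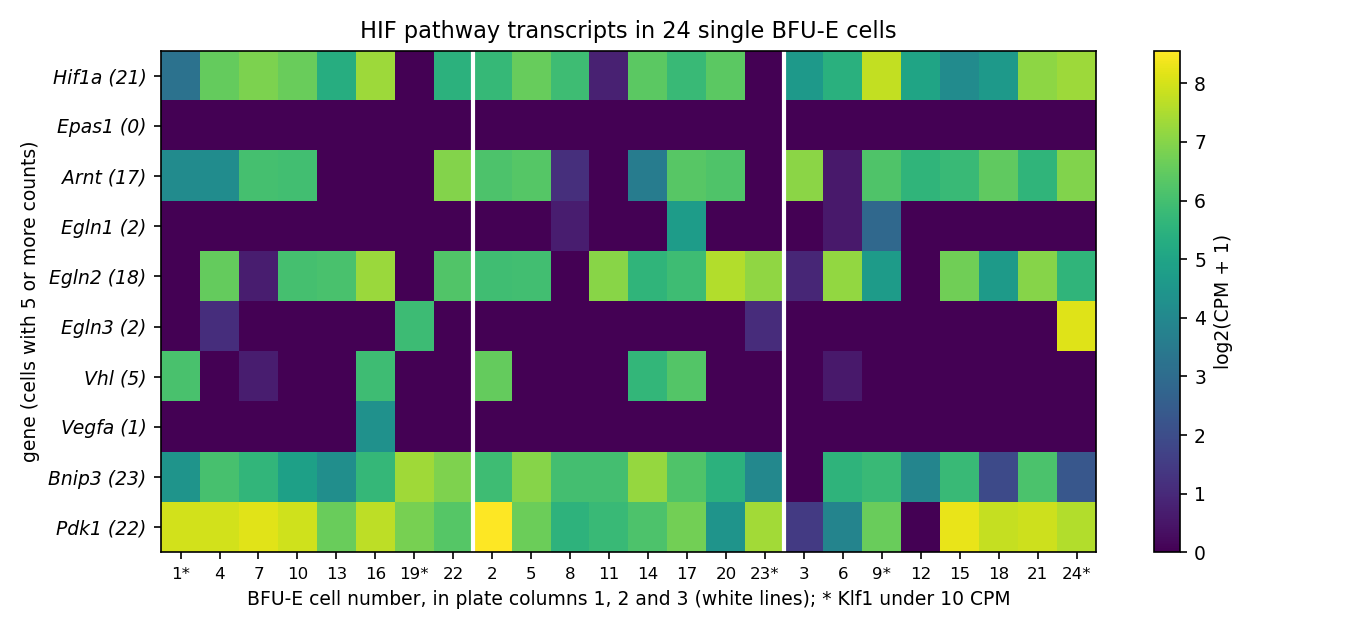
Each tile gives log2(CPM + 1) of 1 member (rows, with the number of cells in which it was detected) in 1 of 24 BFU-E cells (columns, grouped by plate column; asterisks mark the 5 cells with Klf1 under 10 CPM). Hif1a, Arnt, Egln2, Bnip3 and Pdk1 fill most of their rows, Epas1 is empty, and Egln3 is bright in cells 19 and 24 alone.

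Of the 2 alpha subunits among the members, Hif1a was detected and Epas1 was not. Hif1a (ENSMUSG00000021109), on chromosome 12 from 73901375 to 73947530 in GRCm38, the build of all gene positions here, reached 5 counts in 21 of 24 cells (87.5%, exact Clopper-Pearson 95% interval 67.6 to 97.3, counting error only). Its level was 0 CPM in the lowest cells, 53.7 at the median and 219 in cell 9, with a mean of 68.0 ± 57.5 CPM (SD over 24 cells, as throughout). The cells without it were 11, 19 and 23, with 1, 0 and 0 counts. Their total counts were 1371556, 1234038 and 876983, against a median of 1507638 over all cells, and cell 23 was the shallowest of the plate. Cells 1, 3, 12, 14, 22 and 24 had fewer total counts than cell 11 and had Hif1a. With every cell thinned to the lowest total, Hif1a stayed detected in 87.5% of cells. Cells 19 and 23 are among the 5 low in Klf1, and without those 5 it was in 94.7%. The part of depth was not tested. Hif1a shares 330 of its 5896 exon bases with the antisense gene Gm15283, detected in 1 cell, and 148 with Gm49321 on its own strand. Without strand information reads of such pairs cannot be told apart.

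Epas1 (ENSMUSG00000024140, chromosome 17, 86753700 to 86833410) had 0 counts in all 24 cells. This allows up to 3 counts per cell, which is 1.39 to 3.42 CPM depending on depth, and by the same floor a share of up to 12.5% of cells with counts, with an exact upper bound of 14.2%. Neither bounds the share of cells that express the gene. A row of zeros is not unusual in itself, since 46.7% of protein-coding genes had none. Epas1 is known as an abundant transcript of endothelial cells. The sum over 10 endothelial genes ran from 0 to 458 CPM with a median of 17.01, 6 of the 10 had counts, and their part in the Epas1 result was not tested.

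Arnt (ENSMUSG00000015522, chromosome 3, 95434388 to 95497240) was detected in 17 cells (70.8%, interval 48.9 to 87.4). It ranged from 0 CPM through a median of 51.0 to 134 CPM in cell 3, with a mean of 48.4 ± 43.6 CPM. All 17 cells with Arnt also had Hif1a, and the 3 cells without Hif1a were also without Arnt. Cells 6, 8, 13 and 16 had Hif1a alone. The cells highest in each were different ones: cell 9 had the most Hif1a at 219 CPM with 71.9 CPM of Arnt, and cell 3 had the most Arnt with 23.8 CPM of Hif1a.

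**Figure D2:**
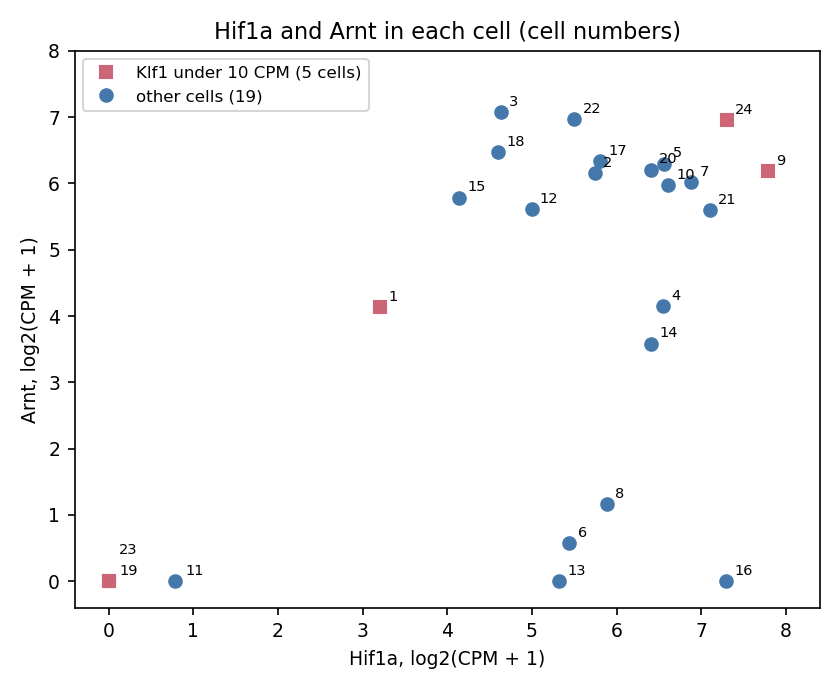
Points are the 24 cells, numbered, with log2(CPM + 1) of Hif1a on the horizontal axis and of Arnt on the vertical axis; squares are the 5 cells with Klf1 under 10 CPM. Cells 11, 19 and 23 lie at or near 0 for both genes, cells 6, 8, 13 and 16 have Hif1a without detected Arnt, and the other 17 cells have both.

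HIF subunits and their relatives, taken as a single list that includes Hif1a, Epas1 and Arnt, were detected about as often as genes in general. Of 14 genes for HIF subunits and other factors of the bHLH-PAS family, 3 reached 12 cells and 7, Epas1 among them, had 0 counts throughout. These shares of 21.4% and 50% stand beside 26.1% and 46.7% of all protein-coding genes. Besides Hif1a and Arnt the third was Hif3a, whose product can oppose the other alpha subunits. Outside the members, Hif3a was thus the only gene of this list to reach 12 cells. Hif3a was seen in 12 cells, with a median of 4.76 and a maximum of 354 CPM in cell 3, and a mean of 41.2 ± 77.9 CPM. It accompanied Hif1a in 11 cells and stood without it in cell 11. The circadian partner Arntl was detected in 10 cells at 25.3 ± 43.7 CPM.

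Among the prolyl hydroxylases, Egln2 was the one detected in most cells. Egln2, which encodes PHD1 (ENSMUSG00000058709, chromosome 7, 27158658 to 27166802), was detected in 18 cells (75.0%, interval 53.3 to 90.2). Its lowest value was 0, its median 61.2 and its highest 188 CPM in cell 20, with a mean of 67.0 ± 56.5 CPM. Egln1, which encodes PHD2, the main oxygen sensor of most tissues (ENSMUSG00000031987, chromosome 8, 124908587 to 124949324), was detected only in cell 9, at 6.41 CPM, and in cell 17, at 25.4 CPM. Its mean was 1.37 ± 5.29 CPM, and without cell 17 its level per length dropped to 0.238 TPM (counts per kilobase of exon, scaled to a sum of 1000000 in every cell), against 0.992 TPM with that cell.

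Egln3, which encodes PHD3 (ENSMUSG00000035105, chromosome 12, 54178981 to 54203860), was also detected in 2 cells, and both were among the 5 low in Klf1. Cell 24 had 278 CPM and cell 19 had 57.5 CPM, while 20 cells had 0 counts. Without the 5 cells it was detected in none of the other 19. Cell 24 also had the highest sum over 8 mast cell and basophil genes, which ranged from 0 to 887 CPM. All of it was Cpa3, while Gzmb, Fcer1a, Ms4a2, Tpsb2 and Cma1 were at 0 in every cell. Cell 19 had the highest sum over 10 endothelial genes, 458 CPM in a range from 0, nearly all Pecam1. It also had the highest over 9 lymphoid genes, 430 CPM in a range from 0, of which 245 were Rag1 and 169 Il7r. The part of other lineages in the Egln3 signal was not tested.

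At least one of the 3 hydroxylase genes was detected in 19 cells, and in cells 1, 3, 7, 8 and 12 none was. All 5 of those cells had Hif1a, and 4 of them, all but cell 8, had Arnt as well. The gene of the asparagine hydroxylase that blocks HIF transactivation, Hif1an, was detected in 6 cells at 16.8 ± 33.6 CPM. Of the 13 genes of oxygen sensing and HIF modification, the 3 hydroxylases included, 5 reached 12 cells, a share of 38.5% beside 26.1% of all protein-coding genes. Per length the leading 3 were Cited4, which competes with HIF for its coactivators, at 507 ± 332 TPM, the acetyltransferase Naa10 at 105 ± 42.1 TPM and Egln2 at 62.6 ± 52.7 TPM.

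Vhl was sparse although the rest of its ligase was not. Vhl (ENSMUSG00000033933, chromosome 6, 113623959 to 113631633) was detected in 5 cells (20.8%, interval 7.13 to 42.2). Cells 1, 2, 14, 16 and 17 had 50.2 to 91.8 CPM, and 17 cells had 0. One annotated pseudogene is named after Vhl, so the counting could have split or lost shared reads and the level is uncertain. Of 10 measured genes of the ligase and its modifiers, 9, all but Vhl, reached 12 cells, a share of 90% beside 26.1% of all protein-coding genes. Nedd8, the modifier that activates cullins, stood at 603 ± 184 TPM, the elongin Elob at 421 ± 130 TPM and the ring protein Rbx1 at 175 ± 52.5 TPM. The partner elongin Eloc stood at 128 ± 74.3 TPM and the scaffold Cul2 at 86.0 ± 70.0 TPM, while Vhl averaged 12.5 ± 25.4 TPM.

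Of the target members, Bnip3 and Pdk1 were detected in most cells, and Vegfa in 1. At a limit of 10 counts Pdk1 was in 91.7% of cells and Bnip3 and Hif1a in 87.5% each. Bnip3, a mitophagy receptor of the outer mitochondrial membrane (ENSMUSG00000078566, chromosome 7, 138890836 to 138909519), was detected in 23 cells (95.8%, interval 78.9 to 99.9). It ran from 0 CPM in cell 3 through a median of 52.9 to 159 CPM in cell 19, with a mean of 56.0 ± 44.0 CPM. The antisense gene Gm45507 overlaps 504 of its 2265 exon bases. Its relative Bnip3l, the mitophagy receptor that clears mitochondria from maturing red cells, was in all 24 cells at 124 ± 78.9 CPM.

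Pdk1, the kinase that shuts pyruvate dehydrogenase and so holds carbon back from the citric acid cycle (ENSMUSG00000006494, chromosome 2, 71873224 to 71903858), was detected in 22 cells (91.7%, interval 73.0 to 99.0). Its lowest value was 0 in cell 12, its median 108 and its highest 375 CPM in cell 2, with a mean of 147 ± 107 CPM. Cells 3 and 12 were without it, and both had its paralogue Pdk3, which was detected in 20 of the 24 cells, 18 of them with Pdk1. Per length Pdk3 averaged 84.7 ± 52.2 TPM and Pdk1 49.5 ± 36.1 TPM, a difference within their SDs. Pdk2 was detected in 9 cells, and Pdk4 had 0 counts in every cell. Of 14 genes of pyruvate dehydrogenase and its control, Pdk1 included, 10 reached 12 cells, a share of 71.4% beside 26.1% of all protein-coding genes. The highest per length were the enzyme subunits Pdhb at 214 ± 82.2 TPM, Pdha1 at 200 ± 106 TPM and Dld at 131 ± 67.0 TPM.

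Vegfa, the growth factor of blood vessels (ENSMUSG00000023951, chromosome 17, 46016993 to 46032369), had counts in cell 16 only, at 19.1 CPM, and 0 counts in the other 23. Cell 16 had the most genes detected of all cells, 7349. Of the 10 measured ligand and receptor genes of the VEGF family none reached 12 cells, and 6 had 0 counts throughout. Of all protein-coding genes, 26.1% reached 12 cells and 46.7% had 0 counts throughout. The highest per length were Vegfb, in 8 cells at 17.9 ± 33.7 TPM, and the receptors Nrp1 and Flt1, in 1 cell each.

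**Figure D3:**
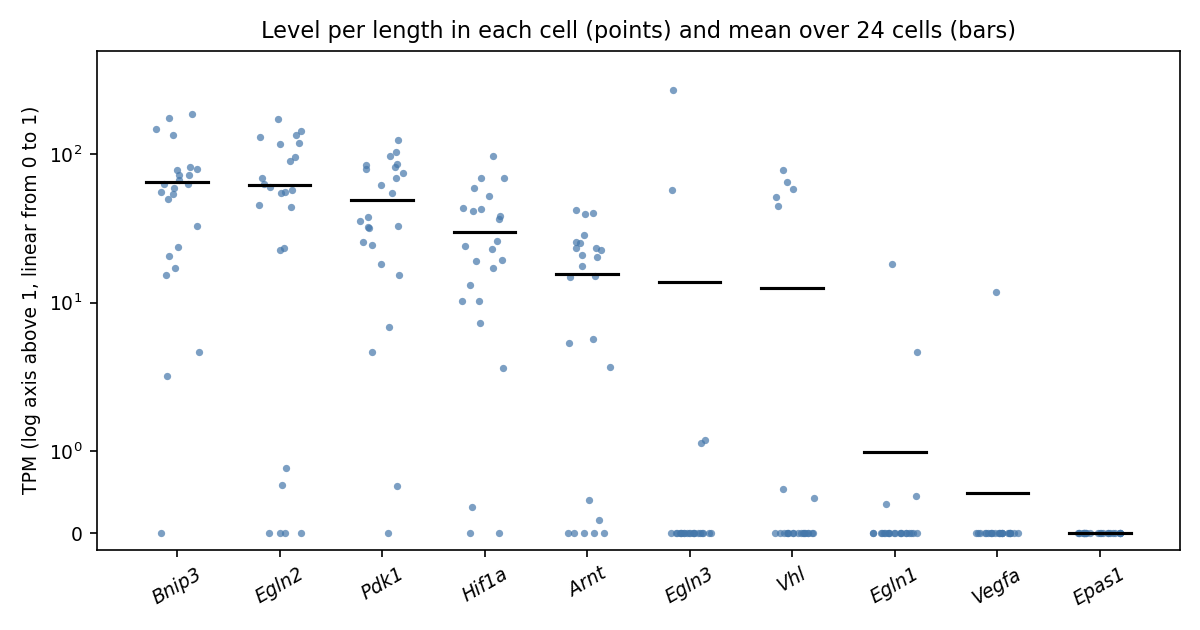
Points give the level per length (TPM) of each member in each of 24 cells, and bars the mean over cells; the axis is logarithmic above 1 TPM and linear below. Bnip3, Egln2, Pdk1, Hif1a and Arnt were detected in 17 to 23 cells each, while the means of Egln3, Vhl, Egln1 and Vegfa rest on 1 to 5 cells.

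Levels of different genes were compared per length, as TPM. The order of the means was Bnip3 at 65.0 ± 51.5 TPM, Egln2 at 62.6 ± 52.7, Pdk1 at 49.5 ± 36.1, Hif1a at 30.2 ± 25.5, Arnt at 15.7 ± 14.05, Egln3 at 13.8 ± 55.9, Vhl at 12.5 ± 25.4, Egln1 at 0.992 ± 3.81, Vegfa at 0.490 and Epas1 at 0. No neighbours in this order differed by more than the larger of their SDs. Bnip3 was above Egln2 in 11 cells and below it in 13. Their order turned with any 1 of cells 5, 8, 14, 19 or 22 left out, as with cell 19 at 59.7 and 65.3 TPM. It also turned without the 5 cells low in Klf1, at 66.5 and 68.6 TPM. Hif1a was above Arnt in 15 cells and below it in 7. The place of Egln3 rests on cell 24, without which its mean was 2.61 TPM. Set against genes of like level, by the variance of log2(CPM + 1) over a trend on the mean across 8266 genes, Pdk1 ranked 2024th and Egln2 2608th from the most variable, and Bnip3 7615th.

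Of 21 target genes for glucose uptake and use, Pdk1 included, 18 reached 12 cells, a share of 85.7% beside 26.1% of all protein-coding genes. Of the 21, 11 were detected in all 24 cells, a count not compared with that of other genes. The leading 3 were Ldha, which makes lactate, at 2908 ± 749 TPM, Tpi1 at 1278 ± 407 TPM and Aldoa at 1273 ± 509 TPM. These enzymes are housekeeping genes as well as HIF targets, and Ldha and Aldoa have 2 annotated pseudogenes each, which makes their levels uncertain. Of 52 other measured targets, among them Bnip3, Vegfa, Egln1 and Egln3, 11 reached 12 cells, a share of 21.2% beside 26.1% of all protein-coding genes. A further 10 of the 52 had 0 counts throughout, as 46.7% of all protein-coding genes did, and the median gene of the list was seen in 4 cells. Mif, a cytokine, led at 3134 ± 965 TPM with 2 annotated pseudogenes, followed by the mitochondrial protein gene Fam162a at 649 ± 339 TPM and the lipid droplet gene Hilpda at 113 ± 120 TPM. Epo itself had 0 counts in every cell.

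The lists that follow stand beside 26.1% of all protein-coding genes that reached 12 cells. Of the 17 measured genes of mitophagy, Bnip3 included, 14 reached 12 cells, with Phb2 at 532 ± 193, Gabarap at 181 ± 94.0 and Fkbp8 at 164 ± 66.1 TPM. Of 6 genes of iron control linked to Epas1, whose messenger RNA is repressed by iron regulatory protein, 3 were so detected. Aco1, which encodes that protein, stood at 25.5 ± 35.3, Slc11a2 at 22.5 ± 25.2 and Slc40a1 at 11.6 ± 14.1 TPM. Of 15 genes that make or use 2-oxoglutarate and succinate, a substrate and a product of the hydroxylases, 14 were so detected, led by Sdhd at 1391 ± 552, Sdhb at 572 ± 186 and Idh3g at 449 ± 174 TPM. Of 10 genes known to control Hif1a transcription or translation 8 were so detected, led by Myc at 811 ± 425, Rela at 88.1 ± 66.5 and Rheb at 49.3 ± 23.1 TPM.

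Co-variation of the members from cell to cell was weak. Over the 10 pairs of the 5 widely detected members, Spearman rho of CPM over 24 cells ran from −0.21 to 0.29 with a median of 0.061, and 0 of the 10 pairs reached an absolute rho of 0.5. Of all 17769741 pairs among the 5962 genes detected in at least 12 cells, 1.88% did, the median rho was 0.0092, and the central 95% ran from −0.41 to 0.43. Every member pair lay inside that range. Within plate columns 1, 2 and 3 the median over member pairs was 0.15, −0.060 and 0.071. The cells share a plate, a sort and an unknown number of embryos, and these values carry no p.

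**Figure D4:**
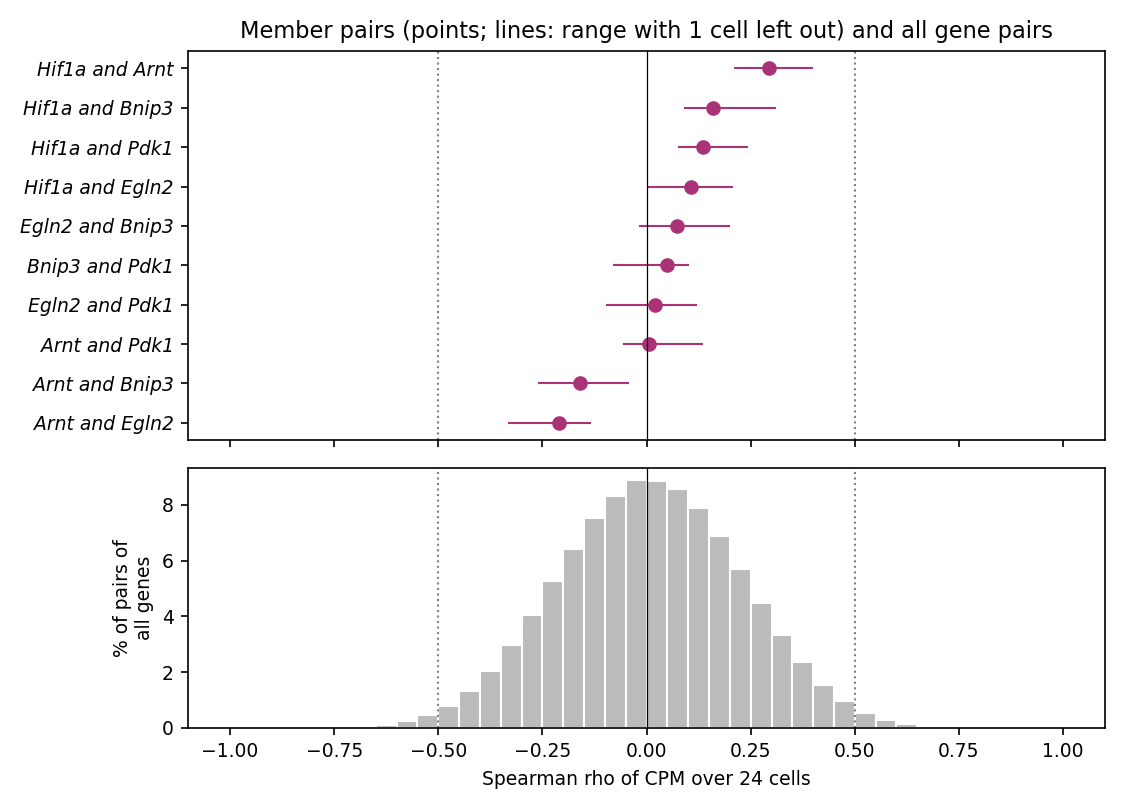
The upper panel gives Spearman rho over 24 cells for each pair of the 5 widely detected members (points) with the range when any 1 cell is left out (lines); the lower panel gives the percentage of all gene pairs in steps of 0.05. All member pairs stay between the dotted lines at −0.5 and 0.5, from Arnt and Egln2 at −0.21 to Hif1a and Arnt at 0.29.

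The highest pair was Hif1a with Arnt. Its rho was 0.29 and its Pearson r on the log2(CPM + 1) scale 0.52. Without the 2 cells farthest from the median of Hif1a the r was 0.29, and without the 5 cells low in Klf1 the rho was −0.10. Within the plate columns rho was 0.29, 0.59 and −0.095. The next pair, Hif1a with Bnip3, had a rho of 0.16, an r of 0.055 and an r of 0.18 without 2 cells, with 0.35 without the cells low in Klf1. The lowest pairs were Arnt with Egln2 at −0.21 (r −0.045) and Arnt with Bnip3 at −0.16 (r −0.24). The levels were also set against depth. Over the 24 cells, Spearman rho with total counts was 0.37 for Egln2, 0.30 for Hif1a, 0.19 for Pdk1, 0.10 for Bnip3 and −0.079 for Arnt.

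As groups, the HIF targets showed little relation to Hif1a. The 18 glycolytic targets, Pdk1 among them at 0.14, had rho with Hif1a of −0.17 to 0.23 with a median of 0.12, against a median of 0.040 over 5961 genes, and 0 of them reached an absolute rho of 0.5, as 1.26% of all genes did. Without the 5 cells low in Klf1 their median was −0.033, and within the plate columns it was 0.24, −0.060 and 0.23. The highest were Pfkl at 0.23, Gapdh at 0.21 and Aldoa at 0.17, and the lowest Slc2a1, the main glucose transporter, at −0.17, Pfkp at −0.15 and Ldha at −0.047. The 11 other targets, Bnip3 among them, had a median rho of 0.023, or 0.039 without the cells low in Klf1, with 1 past the limit.

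That gene was Ero1l, an oxidase that forms disulfide bonds in the endoplasmic reticulum. Ero1l was detected in 13 cells at 14.6 ± 17.5 CPM and had a rho of 0.56 with Hif1a (r 0.40, and 0.63 without 2 cells). Within the plate columns its rho was 0.43, 0.76 and 0.86, without the 5 cells low in Klf1 0.67, and with any 1 cell left out 0.52 to 0.74. Next came the mitochondrial gene Higd1a at 0.38 and Mif at 0.26, whose values without the cells low in Klf1 were 0.077 and 0.067. The lowest were Tfrc, the transferrin receptor, at −0.25, Hilpda at −0.15 and Wsb1 at −0.10.

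**Figure D5:**
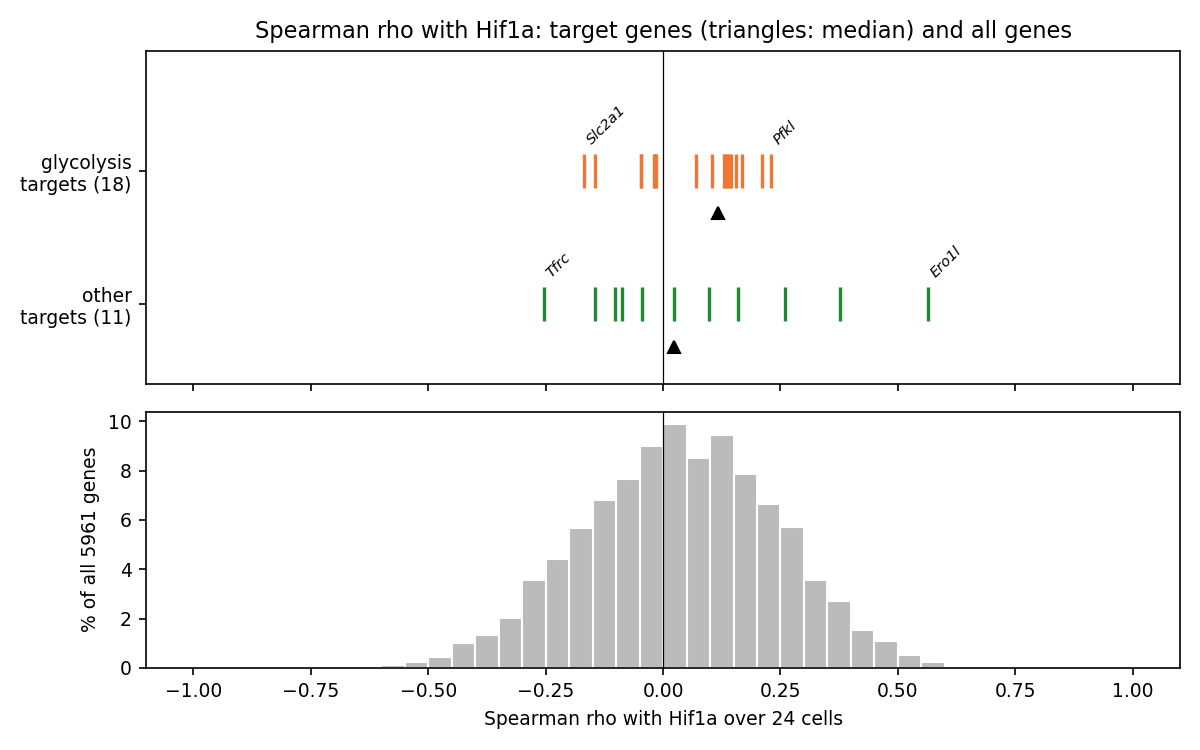
The upper panel marks Spearman rho with Hif1a over 24 cells for 18 glycolytic and 11 other HIF targets (ticks; triangles are the medians, 0.12 and 0.023); the lower panel gives the percentage of all 5961 genes in steps of 0.05. Target genes fall within the spread of all genes, and Ero1l at 0.56 is the single target past 0.5.

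The genes whose levels followed each member most closely were outside the lists of the pathway. These are the extremes of 5961 genes ranked over 24 cells for each member, given as a description. For Hif1a they were Impdh1, an enzyme of guanine nucleotide synthesis, with a rho of 0.77, Wdr11 at 0.69 and Tiprl at 0.67, and the lowest was Ramp1 at −0.63. Impdh1 kept a rho of 0.76 without the 5 cells low in Klf1 and had 0.90, 0.32 and 0.91 within the plate columns. For Arnt, with 1.66% of genes past an absolute rho of 0.5, they were Cdca7l at 0.72, P2rx4 at 0.69 and Pcmt1 at 0.68, and Ube2s, a ubiquitin-conjugating enzyme of mitosis, at −0.79. Within the plate columns Cdca7l had 0.17, 0.71 and 0.81, and Pcmt1 had 0.76, 0.71 and 0. Some listed genes also passed 0.5. Of 10 genes of pyruvate dehydrogenase and its control, 1 reached a rho of 0.65 with Hif1a, beside 1.26% of all genes past the limit. Of 14 genes of 2-oxoglutarate and succinate, 1 reached 0.50 with Arnt.

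For Egln2, with 1.34% of genes past that limit, the closest was Klhdc2, a substrate receptor of a cullin ligase, at 0.81, followed by Tbcd at 0.65 and Dnaja1 at 0.62, and the lowest was Dync1li2 at −0.69. Klhdc2 had 0.79, 0.86 and 0.93 within the plate columns and 0.80 without the cells low in Klf1. For Bnip3, with 1.9% past the limit, Zfp326 and Ptcd1 stood at 0.68 each and the lowest was Asb8 at −0.69. Within the plate columns Zfp326 had 0.37, 0.26 and 0.86, and Ptcd1 had 0.76, 0.55 and 0.62. For Pdk1, with 1.34% past the limit, Copa stood at 0.66, Mrpl45 at 0.65, Bex3 at 0.64 and Pcyt2, an enzyme of phosphatidylethanolamine synthesis, at −0.76. Within the plate columns Copa had 0.33, 0.17 and 0.83. The r of Copa on the log2 scale was 0.26 and that of Mrpl45 0.18.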

How the data were processed

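Raw read counts per gene were used as deposited by the authors, 1 column for each of 24 cells. Per the submitters' processing notes, tools included STAR 2.4 and featureCounts, with the genome GRCm38. Counting settings, annotation release and cell filters were not stated there. Libraries were made without strand information, per the labels' protocols. Of 49585 gene rows, 49326 matched a symbol in GENCODE M21, which gave positions and merged exon lengths on GRCm38; the 259 others hold 0.0295% of counts and stayed in the totals.

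From these counts, CPM (total over all gene rows), TPM (rows with a length) and log2(CPM + 1) were computed in Python 3.11.15 with numpy 2.4.6, pandas 2.3.3, scipy 1.17.1 and statsmodels 0.14.6. A gene was called detected at 5 counts. Co-variation used genes detected in at least 12 cells, and spread those in at least 6, over a lowess trend with a span of 0.3. A count of 0 allows 3 counts. Intervals and floors cover counting error only, since PCR copies are not independent molecules. Nedd8, Fam162a, Naa10 and Higd1a share exon bases with neighbouring genes, and Gapdh, Mif, Rbx1 and Bnip3l have annotated pseudogenes, so their levels are uncertain. The code for rho and for the variance trend was first run on simulated counts. Those counts had no added zeros, and rho was taken to a known factor. That run therefore does not show how well rho between sparse genes is measured. Promoters came from RefSeq, build GRCm38.p6.

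The members, lists and tests were chosen with earlier results of these data known. Named genes were the members, the 3 highest of each pathway list by TPM, 4 BFU-E genes, the 3 closest and the lowest gene for each widely detected member, and the 3 highest and lowest targets of Hif1a. Hif1an, Eloc, Cul2, Pdk2, Pdk3, Pdk4, Arntl, Bnip3l, Epo and single marker genes were named after their values were seen. One gene that the rule names for Bnip3 is not reported here. The symbols Tceb1, Tceb2, Figf and Ero1a were not matched, while Eloc, Elob, Vegfd and Ero1l were. Alternatives covered detection limits, thinning, scaling, gene length, the correlation measure, gene filters, plate columns and cells left out.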

Additional observations from a re-analysis of the deposited data

How the results depend on the processing

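The 5 members detected in at least 12 cells were 5 in number at 1 count, at 10 counts, after thinning every cell to the lowest total and without the cells low in Klf1. Means per length stayed within 1 SD over cells under other lengths and other totals. Leaving out 1 of 24 cells cannot move a mean by 1 SD, so that limit is no check there. Without cells 24, 17 and 16 the means of Egln3, Egln1 and Vegfa were 2.61, 0.238 and 0 TPM, against 13.8, 0.992 and 0.490 TPM over all cells. The median rho of member pairs was −0.013 to 0.11 with 1 cell left out. The number of member pairs past 0.5 was 0 under 8 of 10 other settings and with any 1 cell left out, and 1, Hif1a with Arnt, by Pearson r of log2(CPM + 1). By r of log2(CPM + 0.1) it was also 1. With that smaller pseudocount, the medians with Hif1a were 0.27 for glycolytic and 0.32 for other targets. The glycolytic median was −0.033 without the cells low in Klf1, 0.24 within plate column 1 and −0.060 within column 2, and the median of other targets was 0.31 within column 2. Why these values moved was not tested. No paired analysis was possible because there is 1 group. With 24 cells and 1 sample of unknown embryos, the values say nothing of the spread between animals.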

Other observations

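Of 175 relations between the 5 widely detected members and 14 erythroid, 13 proliferation and 8 signalling genes detected in at least 12 cells, 1 reached an absolute rho of 0.5, as did 1.88% of all gene pairs. It was that of Hif1a with the cell cycle kinase Cdk1, at 0.52, with an r of 0.60 on the log2(CPM + 1) scale and 0.25 without the 2 cells farthest from the median of Hif1a. Without the 5 cells low in Klf1 its rho was 0.20. The next in size were Egln2 with Cdc20 at 0.50, just under that limit and 0.28 without those cells, Egln2 with Kit at 0.47 and Bnip3 with the replication helicase gene Mcm6 at 0.46. The lowest was Arnt with the mitotic cyclin Ccnb1 at −0.44. These pairs were picked after their values were seen, and the values describe 24 cells of 1 group.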
